A study of Mus musculus with 8 samples.

Results

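Contacts between places of the same autosome that lie more than 20 Mb apart were described in 8 in situ HiC libraries of activated mouse B cells. In in situ HiC, crosslinked chromatin is cut (here by MboI, which cuts at GATC), ends that lie close together are ligated inside the nucleus, and sequencing a ligated product from both sides gives a read pair that stands for 1 contact. Read-pair counts in 50 kb bins of GRCm38 were summed to 1 Mb bins, and every pair of 1 Mb bins of the same autosome whose start positions differed by more than 20 Mb was taken. Bins with many unknown bases or extreme interchromosomal coverage had been left out, and from the rest the choice used position alone. It gave 113800 bin pairs of the 159537 autosomal cis bin pairs; another 43357 lay 1 to 20 Mb apart and 2380 were a bin with itself. All 113800 had enough counts to be tested, since the summed count over the libraries had to reach only 10. Splenic naive B cells of male C57BL/6 mice were labelled with a dye that dilutes on division and cultured with 25 μg/ml LPS (lipopolysaccharide, a bacterial product that activates B cells through Toll-like receptor 4) and taken at 3 h, at 10 h, at 33 h as undivided cells about to divide (33 h imminent division) or at 33 h as cells before S phase (33 h pre-S), with 2 biological replicates each. The pre-S cells came from FUCCI mice, which carry fluorescent markers of the cell cycle phase, and were sorted by those markers. The mouse line, the gate and the group therefore cannot be told apart in any comparison with pre-S. The methods give the mice as 6 to 12 weeks old on a C57BL/6 Pep3b background, and the activated cells of the other groups were sorted as cells that had not yet divided.

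Each chromosome occupies its own territory in an interphase nucleus, and contact frequency falls as the distance along the chromosome grows. Beyond a few Mb the pattern is dominated by compartments: gene-rich, transcribed chromatin (A) meets other A chromatin, and gene-poor, lamina-associated chromatin (B) meets other B chromatin. On entry into mitosis, condensins fold chromosomes into compact rods, compartments are lost, and contacts drop steeply beyond the span of a rod's layers. All mouse autosomes carry the centromere at the start of the sequence, so the proximal end is the centromeric end. The far part of a HiC map is also where contacts ligated at random, which occur equally between chromosomes, weigh most. For this reason the density of contacts between chromosomes is given beside the far contacts.

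The libraries held 88703088 to 218945191 read pairs, of which 17887721 to 34962336 were autosomal cis pairs beyond 20 Mb. The median count per far bin pair was 123 to 245, and at most 0.0413% of the far bin pairs had no count in a library. Cis pairs made up 71.1% to 75.2% of the autosomal read pairs. Imminent division replicate 2 stood apart in its sex chromosomes. On chromosome X lay 3.74% of its read ends, against 2.39% to 2.84% in the other 7 libraries. On chromosome Y lay 0.0490%, against 0.0804% to 0.123%. The methods name male animals throughout, so the sex of the cells in this library is uncertain. The reason for the difference was not tested. The measures of the whole map, the counts of changed chromosomes, bin pairs and bins and the named pairs and bins were also computed without this library. Each named pair and bin kept its direction and still passed, while the gene lists were not counted without it. Replicates of a group differed by more than sampling noise (chi-square per degree of freedom 1.08 to 1.83) and their log2 far counts correlated at 0.98 to 0.99 across bin pairs, which are not independent.

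The far contacts that stood out most over all 8 libraries were not all of a kind: of the top 5 pairs, 3 joined A bins and 4 spanned 87 to 112 Mb. Relative to the mean at its distance on its chromosome, the highest was the pair of chr4:42999662-43999871 and chr4:154999988-156000115, which lie 112 Mb apart and met 7.82 times as often. Both are A bins, each rich in genes: the former holds Unc13b, which primes synaptic vesicles, beside several olfactory receptor genes among its 37 protein-coding genes, and the latter holds Prkcz, an atypical protein kinase C, among 38. The pair had 383 and 770 counts at 3 h, 554 and 773 at 10 h, 690 and 925 in imminent division cells and 546 and 493 in pre-S cells. The next were the Grik3 and Prdm16 bins of chromosome 4, both of the middle class (29 Mb apart, 6.64), the Unc13b and Prdm16 bins (111 Mb, 6.63), the Camsap1 and 4930402H24Rik bins of chromosome 2 (105 Mb, 6.59) and the Poln and Hectd4 bins of chromosome 5 (87 Mb, 6.53). These pairs were picked for their level, so they are shown as a description. One short MboI fragment from each bin of the strongest pair shows what the assay joins: a ligation product of this contact runs from one such fragment into the other through a GATC end. The fragments lie at chr4:43002811-43002920 (110 bases) and chr4:155001338-155001402 (65 bases) of GRCm38.p6, both written 5′ to 3′ on the plus strand with the MboI sites in capitals.
Unc13b bin fragment: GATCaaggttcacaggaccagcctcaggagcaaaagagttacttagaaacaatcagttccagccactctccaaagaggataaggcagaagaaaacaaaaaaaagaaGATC
Prkcz bin fragment: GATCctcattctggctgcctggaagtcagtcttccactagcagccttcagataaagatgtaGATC

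Far contacts took up the smallest share of cis pairs just before division. The share beyond 20 Mb was 28.68% and 28.60% at 3 h, 27.44% and 28.20% at 10 h, 23.20% and 23.67% in imminent division cells, and 26.14% and 26.69% in pre-S cells. The groups did not overlap, in the order 3 h, 10 h, pre-S, imminent division. The means were 28.64% ± 0.053, 27.82% ± 0.54, 23.43% ± 0.34 and 26.41% ± 0.39 (SD, n = 2 libraries, in the order 3 h, 10 h, imminent division, pre-S), and the 4 groups differed (exact permutation test over 105 groupings, p = 0.00952, the smallest it can give; 0.0254 after Benjamini-Hochberg adjustment over 8 measures of the map). With 2 libraries a group, a single pair of groups cannot be tested this way. Without imminent division replicate 2 the exact permutation test gave an adjusted p of 0.0254, while leaving out either 3 h library or either 10 h library raised it to 0.0762 and leaving out pre-S replicate 1 to 0.0508. With the limit at 50 Mb the mean shares were 11.88%, 11.66%, 9.61% and 11.45%, so pre-S lay near 10 h there (exact permutation p = 0.0190, adjusted 0.0508).

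The loss in imminent division cells was spread unevenly over distance. Per 1000000 cis pairs, the mean count of a bin pair at 21 to 40 Mb was 3.51 at 3 h, 3.38 at 10 h, 2.93 in imminent division cells and 3.13 in pre-S cells. Imminent division differed from 10 h by -13.3% at 21 to 40 Mb, -18.3% at 41 to 60 Mb, -19.1% at 61 to 80 Mb, -17.0% at 81 to 100 Mb and -11.4% beyond 100 Mb. The deficit was therefore deepest between 41 and 100 Mb. Pre-S differed from 10 h mostly in the nearer far contacts, by -7.55%, -5.95%, -2.03%, -0.52% and 2.65% over the same classes. Contacts at 1 to 2 Mb took the opposite course in imminent division cells, with 20.1% more than at 10 h.

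**Figure D1:**
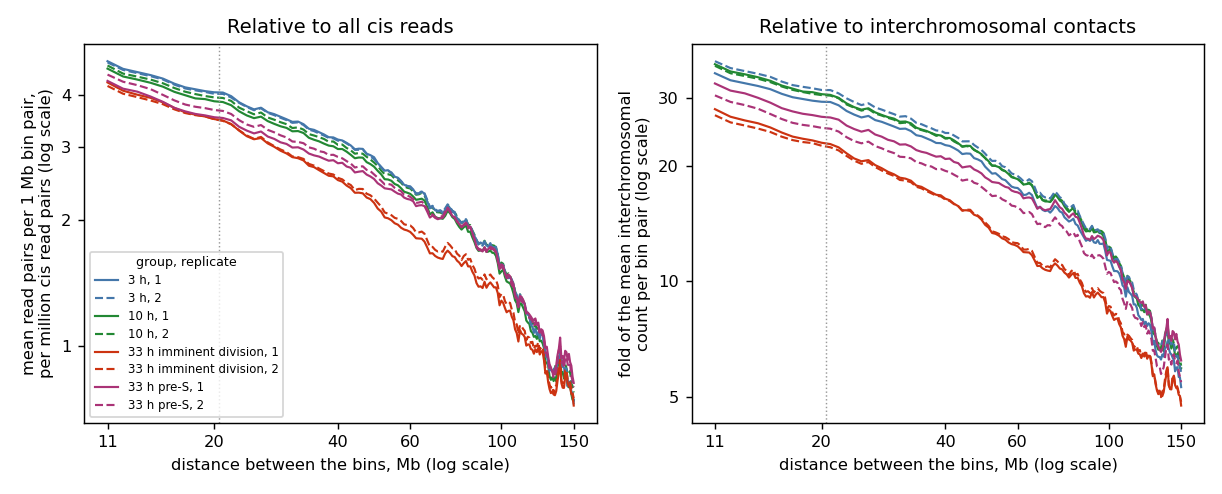
Contact decay in the 4 groups. The left panel shows the mean count per pair of 1 Mb bins per 1000000 autosomal cis pairs and the right panel the same density as a fold of the interchromosomal density, against distance in Mb on log axes, with a line for each library and a dotted line at 20 Mb. In the left panel the imminent division lines lie lowest over most of the far range, at a mean of 1.72 against 2.13 at 10 h for 61 to 80 Mb, where pre-S had 2.09.

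The slope of the decay from 21 to 100 Mb, on log10 axes, was -0.599 ± 0.0027 at 3 h, -0.579 ± 0.011 at 10 h, -0.623 ± 0.023 in imminent division cells and -0.511 ± 0.024 in pre-S cells (SD, n = 2). Pre-S had the shallowest decay, at -0.494 and -0.528, and these 2 libraries lay apart from the other 6, which ranged from -0.640 to -0.572. The 4 groups differed (exact permutation p = 0.00952, adjusted 0.0254). The exact permutation test gave an adjusted p of 0.0762 without 3 h replicate 1, 3 h replicate 2, 10 h replicate 1 or 10 h replicate 2 and 0.0508 without imminent division replicate 1; without imminent division replicate 2 it stayed at 0.0254.

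Set against contacts between chromosomes, the far cis contacts were denser in each library. At 21 to 40 Mb a cis bin pair had 25.5 and 27.5 times the mean count of an interchromosomal bin pair at 3 h, 26.7 and 26.5 times at 10 h, 19.2 and 19 times in imminent division cells and 23.3 and 21.7 times in pre-S cells. The imminent division and pre-S libraries lay below all others and apart from each other. The means were 26.5 ± 1.4, 26.6 ± 0.090, 19.1 ± 0.16 and 22.5 ± 1.1 (SD, n = 2), which missed the threshold after adjustment (exact permutation p = 0.0286, adjusted 0.0571). Left out singly, 3 h replicate 2 and pre-S replicate 2 brought the exact permutation test's adjusted value to 0.0381 and 0.0457. Beyond 100 Mb the excess was 8.64, 8.92, 6.54 and 8.40 times (exact permutation p = 0.0952, adjusted 0.152). Relative to the interchromosomal density the deficit of imminent division against 10 h was larger than within cis, at -28.2%, -32.3%, -33.0%, -31.3% and -26.6% over the 5 distance classes, and the imminent division libraries also held the lowest cis percentages, 71.4% and 71.1%.

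Every autosome took part in the loss in imminent division cells. With the cis total of each chromosome as the library size, all 19 autosomes fell beyond 20 Mb between 10 h and imminent division (edgeR FDR under 5%), where 54.4% of the 114 combinations of chromosome and distance class fell and 33.3% rose. The median log2 change was -0.25, from -0.34 on chromosomes 15 and 16 to -0.19 on chromosome 1, with SE of 0.017 to 0.027. On each of the 19 both imminent division libraries lay below both 10 h libraries, against 55.3% of the 114 combinations. The same counts came without imminent division replicate 2 and under each of the other libraries left out. Against pre-S, imminent division was lower on all 19 too, by a median of -0.18 (-0.25 to -0.12), where 54.4% of combinations fell, 32.5% rose and 57% did not overlap in the lower direction.

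Between 10 h and pre-S, 17 autosomes fell, by a median log2 change of -0.07 over the 19 and most on chromosome 19 (-0.19, SE 0.024), where 35.1% of all combinations fell and 32.5% rose. The exceptions were chromosomes 1 and 3, with changes of -0.05 and -0.04 and edgeR adjusted p of 0.11 and 0.12. All 19 had pre-S libraries below the 10 h libraries (40.4% of combinations). This count was less stable: 10 autosomes fell without pre-S replicate 1, 11 without 10 h replicate 2 and 9 with the limit at 50 Mb. Between 3 h and 10 h, chromosomes 11, 15, 16, 17 and 19 fell, by -0.08 to -0.05, where 10.5% of combinations fell and 16.7% rose. The median change was -0.04 and all 19 had both 10 h libraries below the 3 h libraries (48.2% of combinations). Without 3 h replicate 1 or 10 h replicate 1 no autosome passed, without 3 h replicate 2 1 did, and without 10 h replicate 2 10 did.

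Long chromosomes held more far contacts, as they offer more far bin pairs. On chromosome 1 the share of cis beyond 20 Mb was 34.22% and 34.14% at 3 h, 33.03% and 33.96% at 10 h, 29.09% and 29.54% in imminent division cells and 32.23% and 32.56% in pre-S cells. On chromosome 19, the shortest, it was 14.39% and 14.22%, 13.39% and 13.75%, 10.89% and 11.04%, and 11.61% and 12.20%. Across the 19 autosomes the share followed length in each group (Pearson's r 0.928 to 0.946, a description over chromosomes of the same libraries) and had little relation to gene density (-0.224 to -0.156). The relative loss ran the other way. Between 10 h and imminent division the share changed by -12.5% on chromosome 1 and by -21.1% on chromosome 15, and the percent change correlated with length at 0.798; for pre-S against 10 h the value was 0.677. Gene-rich chromosome 11 changed by -19.8% and -9.10% from 10 h to imminent division and to pre-S, with 27.79% and 27.50% at 3 h, 25.87% and 26.51% at 10 h, 20.57% and 21.44% in imminent division cells and 23.32% and 24.29% in pre-S cells.

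**Figure D2:**
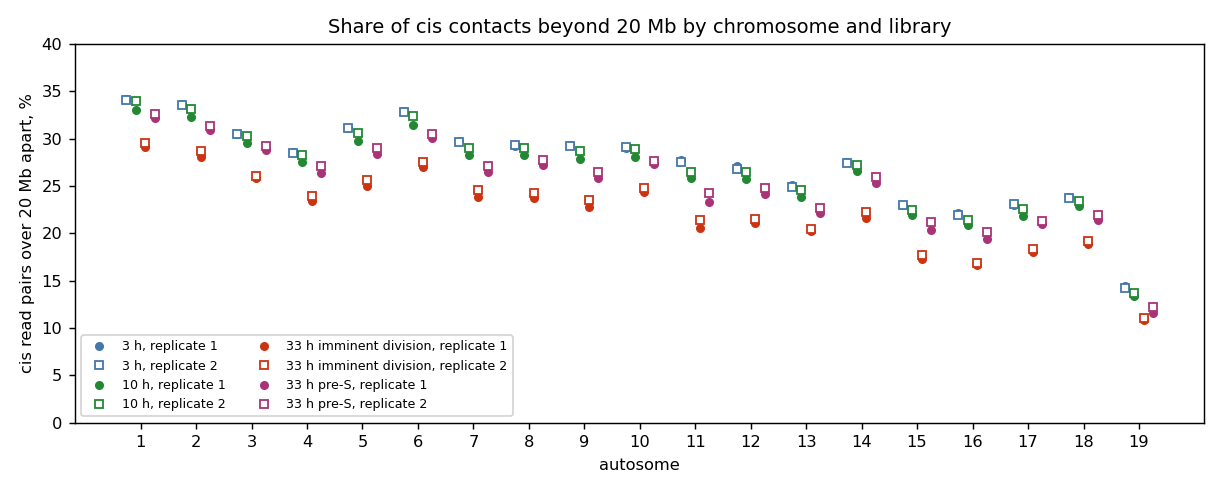
Share of cis pairs beyond 20 Mb, in percent of the chromosome's cis pairs, for each autosome in order of number. Filled circles are replicate 1 and open squares replicate 2, coloured by group. On each autosome the imminent division points are lowest, and the values run from 34.22% on chromosome 1 at 3 h to 10.89% on chromosome 19 in imminent division cells.

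Compartments were taken as the top and bottom 20% of the 2380 bins along the first component of the pooled interchromosomal map, 476 A bins and 476 B bins. A bins had a mean GC content of 46.0% ± 2.7 and 19 protein-coding gene starts per bin, and B bins 38.1% ± 1.9 and 2.09 (SD over bins), while MboI sites were about equally dense, at 2.45 and 2.51 per kb. Of the far bin pairs, 4143 joined A to A, 4492 B to B and 9249 A to B. A–A pairs met at about 2 times, B–B pairs at 1.5 to 2 times and A–B pairs at 0.13 times the mean of their distance. Compartment strength, the product of A–A and B–B over the square of A–B, was 168 and 188 at 3 h, 218 and 209 at 10 h, 191 and 187 in imminent division cells and 264 and 176 in pre-S cells. The pre-S replicates lay further apart than those of any other group, and the groups did not differ beyond the spread (exact permutation p = 0.524). Without pre-S replicate 2 the adjusted p was 0.0381 by the exact permutation test, and without pre-S replicate 1 the pre-S value of 176 lay below the 3 h mean of 178 and no longer above it (exact permutation p = 0.0857, adjusted 0.114). The order of 10 h and imminent division turned with distance, from 194 against 142 at 21 to 40 Mb to 193 against 263 at 81 to 100 Mb and 202 against 262 beyond 100 Mb. It also turned over all far pairs once the mean interchromosomal density was taken off (594 against 927, exact permutation p = 0.2).

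As counted, pre-S had the weakest A–A and the strongest B–B contact. A–A contact was 2.15 and 2.04 at 3 h, 2.08 and 2.04 at 10 h, 2.02 and 2.16 in imminent division cells and 1.81 and 1.85 in pre-S cells. B–B contact was 1.41 and 1.61, 1.58 and 1.60, 1.67 and 1.49, and 2.02 and 1.94 in the same order. In both measures the pre-S libraries lay outside the range of the other 6, while the other groups overlapped (exact permutation p = 0.143 and 0.114, adjusted 0.163 and 0.152). By chromosome, B–B contact was higher in both pre-S libraries than in both 10 h libraries on all 19 autosomes (42.1% of the 57 combinations of chromosome and pair class) and A–A contact was lower on 18 (33.3%). The coverage of the bins moved with this result: B bins held 15.8% and 15.7% of interchromosomal read ends in pre-S cells against 11.5% to 14.1% in the other libraries, and A bins 25.3% and 25.8% against 26.7% to 28.8%.

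After iterative correction, which divides out how many far contacts each bin has in total, the order of the groups turned. A–A contact was then 1.97 and 2.08 at 3 h, 2.14 and 2.14 at 10 h, 2.27 and 2.18 in imminent division cells and 2.46 and 2.35 in pre-S cells. B–B contact was 2.28 and 2.16, 2.16 and 2.14, 1.98 and 2.09, and 1.88 and 1.85. Corrected A–A contact thus was highest and corrected B–B contact lowest in pre-S cells. The 4 groups differed in each (exact permutation p = 0.00952, adjusted 0.0190), a test over all groups that does not single out pre-S. The direction of the pre-S difference in A–A and B–B contact therefore depends on whether bin coverage is corrected, and for A–A contact also on how. With interchromosomal coverage in the offsets of the pair test described below, 231 A–A pairs were stronger and 1494 weaker in pre-S cells than at 10 h. Their median log2 change was then -0.12, where all far pairs had -0.11. The part of coverage in these differences was not tested further.

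**Figure D3:**
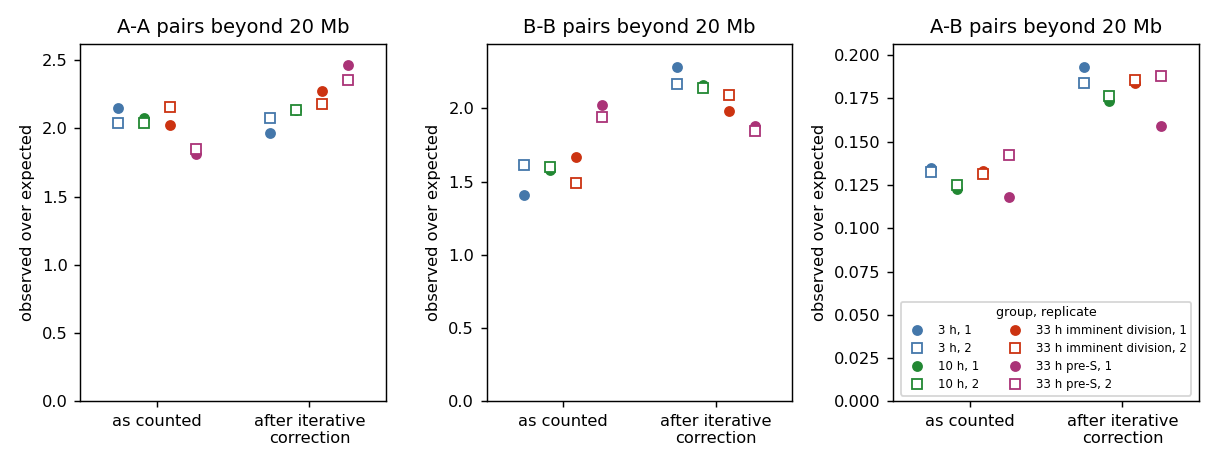
Mean contact of A–A, B–B and A–B bin pairs beyond 20 Mb relative to the mean at the same distance (3 panels), per library, as counted and after iterative correction within each panel. Filled circles are replicate 1 and open squares replicate 2, coloured by group. In the B–B panel as counted, pre-S has B–B values of 2.02 and 1.94 above all other libraries, and after correction it has the lowest, 1.88 and 1.85.

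Summed over the autosomes, the ends of the chromosomes met less often at 33 h, but not on each of them. Pairs joining the first 10 Mb of mapped sequence to the last 10 Mb had 1.26 and 1.25 times the mean of their distance at 3 h, 1.24 and 1.23 at 10 h, 1.10 and 1.11 in imminent division cells, and 1.15 and 1.16 in pre-S cells. The 4 groups did not overlap and differed (exact permutation p = 0.00952, adjusted 0.0254). The adjusted value of the exact permutation test was 0.0762 without 3 h replicate 1, 10 h replicate 1 or 10 h replicate 2, and 0.0254 without imminent division replicate 2. On chromosome 8 the mean was 1.47 at 10 h, 0.902 in imminent division cells and 1.07 in pre-S cells. Chromosome 3 went the other way, with 0.988, 1.22 and 1.33. Both imminent division libraries lay below both 10 h libraries on 11 of 19 autosomes and above them on 6. For pre-S these counts were 12 and 6. The mean of a distance was taken over all autosomes here, so a chromosome's value also holds how dense its far contacts were. With ends of 5 Mb the means over all autosomes were 1.15, 1.13, 0.986 and 1.07.

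Single bin pairs were tested with edgeR over all 157157 cis bin pairs that join different bins, with loess offsets that place the typical bin pair near no change. A stronger or weaker pair is thus one that moved relative to other pairs of like abundance. Of the 113800 far bin pairs, 12349 (10.9%) were stronger and 23213 (20.4%) weaker in imminent division cells than at 10 h, where 17.8% and 18.7% of all cis bin pairs were. With the autosomal cis total as library size the split was 3956 to 44665. The share of all cis bin pairs was not counted on that scale, here or in the other comparisons. With the interchromosomal coverage of both bins in the offsets as well, the split was 4274 to 50709, against 9.3% and 41.4% of all cis bin pairs. Counts fell to 22418 in all without 10 h replicate 1 and 20571 without 10 h replicate 2, and were 32586 without imminent division replicate 2.

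Between 10 h and pre-S, 13359 far pairs were stronger and 22421 weaker with the cis total. With coverage in the offsets these counts were 4459 and 25418, against 6.23% and 24.1% of all cis bin pairs. The loess offsets gave 15553 (13.7%) stronger and 18771 (16.5%) weaker far pairs, against 17.2% and 17.6% of all cis bin pairs. In all, 21242 changed without 10 h replicate 1, 20334 without 10 h replicate 2 and 17636 without pre-S replicate 1. Between pre-S and imminent division, 3552 were stronger and 32690 weaker in imminent division cells with the cis total. With coverage in the offsets these counts were 4721 and 27216, against 9.77% and 22.1% of all cis bin pairs. The loess offsets gave 10377 (9.12%) stronger and 15871 (13.9%) weaker far pairs, against 13.6% and 13.0%. In all, 11471 changed without pre-S replicate 1, 16685 without pre-S replicate 2 and 17427 without imminent division replicate 2. Between 3 h and 10 h, 81 were stronger and 595 weaker at 10 h, against 0.234% and 0.706% of all cis bin pairs. The total of 676 was 269 without 3 h replicate 1, 44 without 10 h replicate 1, 19 without 10 h replicate 2, and 1297 and 1275 without imminent division replicates 1 and 2.

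The balance of stronger and weaker pairs, as called with the loess offsets, differed between distance classes. At imminent division against 10 h, 6377 stronger and 6097 weaker pairs of 35890 lay at 21 to 40 Mb, but 1185 and 5141 of 21060 at 61 to 80 Mb and 1685 and 2068 of 14459 beyond 100 Mb. At pre-S against 10 h the balance went from 4906 stronger and 7706 weaker at 21 to 40 Mb to 2004 and 1209 beyond 100 Mb. The loess offsets follow abundance, which itself falls with distance, so these counts are relative to pairs of like abundance. At 21 to 40 Mb the calls for imminent division were nearly even, although the density relative to cis pairs changed by -13.3% there. How much of the balance comes from the offsets was not tested.

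**Figure D4:**
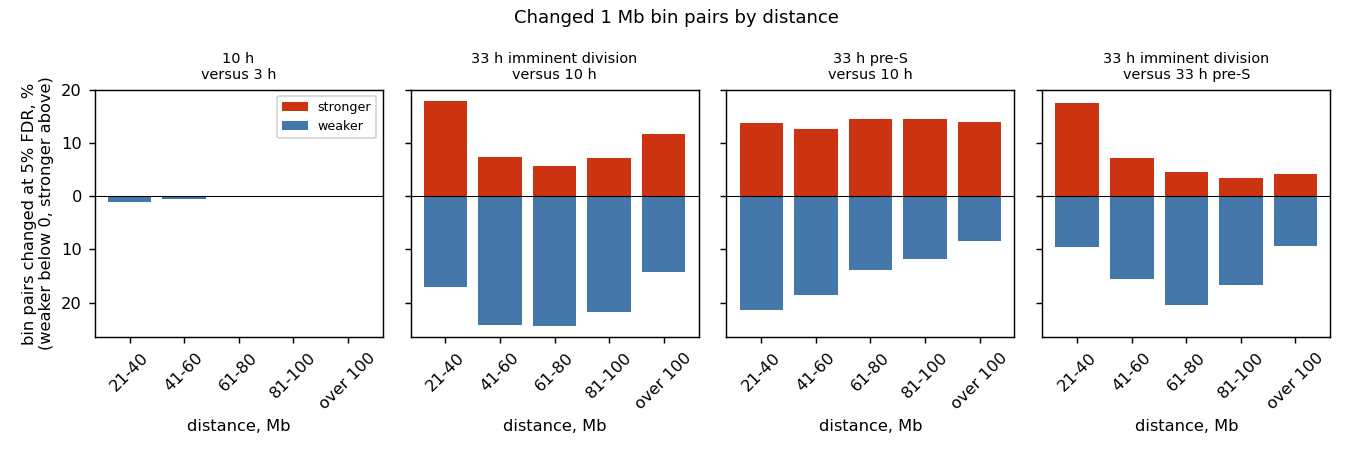
Percent of far bin pairs that were stronger (above 0) or weaker (below 0) in each of the 4 comparisons by distance class in Mb, from edgeR at an FDR of 5%. At imminent division against 10 h, 24.4% of pairs at 61 to 80 Mb were weaker and 5.63% stronger.

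By compartment, the calls between 10 h and pre-S were nearly of a single direction within B. Of the 4492 B–B pairs, 3448 were stronger in pre-S cells and 10 weaker, with a median log2 change of 0.37. Of the 4143 A–A pairs, 35 were stronger and 1980 weaker, with a median of -0.22, and over all far pairs the median was -0.01. A–B pairs had the smallest share of calls, with 324 stronger and 608 weaker of 9249. These pairs met least often for their distance, so a change is harder to call in them. With the interchromosomal coverage of both bins in the offsets the picture turned for B–B pairs, of which 10 were stronger and 3219 weaker (6.23% and 24.1% of all cis bin pairs), and 231 A–A pairs were stronger and 1494 weaker. These offsets also hold the cis total in place of the loess curve, and all far pairs shifted to a median of -0.11. The A–A median was then -0.12, close to that of all far pairs, the A–B median was -0.22 and the B–B median was -0.36. Of the 34324 far pairs changed by loess offsets, 13833 were called in the same and 4020 in the opposite direction.

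In imminent division against 10 h, without coverage in the offsets, 654 A–A pairs were stronger and 1230 weaker, and 307 B–B pairs were stronger and 495 weaker (17.8% and 18.7% of all cis bin pairs). With coverage offsets 114 and 2839 A–A pairs and 24 and 3441 B–B pairs were called, where 9.3% and 41.4% of all cis bin pairs were. Imminent division against pre-S mirrored the pre-S comparison, whose libraries it shares: 1285 A–A pairs were stronger and 28 weaker, and 0 B–B pairs were stronger and 3329 weaker (13.6% and 13.0% of all cis bin pairs). With coverage offsets these counts were 56 and 1835 for A–A and 448 and 761 for B–B (9.77% and 22.1% of all cis bin pairs).

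Of the far pairs with the smallest p in each comparison, 3 in each direction, many shared a bin. A bin of chromosome 15, chr15:68999951-70000051, which holds no start of a protein-coding gene, was part of 9 of them, counting its pairs with the Arid2 and Cdh18 bins in both comparisons with pre-S, which share the pre-S libraries. Its contact with the bin of Arid2, a subunit of a SWI/SNF chromatin remodelling complex, 27 Mb away, was 276 and 257 at 3 h, 289 and 253 at 10 h, 279 and 270 in imminent division cells and 62.9 and 70.5 in pre-S cells, as counts scaled by the offsets. The 2 pre-S libraries lay far below the other 6 (log2 change against 10 h -2.02 ± 0.15 SE, edgeR adjusted p = 3.2e-15; -1.24 with coverage offsets). Its contact with the bin of Cdh18, a cadherin gene, 47 Mb away, was 177 and 188, 223 and 231, 171 and 185, and 518 and 522. There the pre-S libraries lay above all others (1.19 ± 0.10 SE, adjusted p = 3.3e-13; 1.45 with coverage offsets).

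The far contacts of this bin with A and B bins, the picked pairs among them, followed the compartment of the partner. They are given as a description, since the bin was picked for its changes. With its 7 A partners the mean scaled count was 161 and 161 at 3 h, 148 and 140 at 10 h, 114 and 116 in imminent division cells and 34.7 and 37.6 in pre-S cells. With its 19 B partners it was 264 and 281, 288 and 309, 235 and 229, and 538 and 508. Against 10 h, all 7 A partners were weaker and all 19 B partners stronger in pre-S cells. Over all 60 far partners, middle-class bins included, 22 were stronger and 32 weaker. Contacts of the bin with other chromosomes were not used in choosing it, and in pre-S cells their shares moved in the same directions. A bins of other chromosomes received 13.4% and 12.4% of them at 3 h, 11.9% and 11.8% at 10 h, 14.1% and 14.3% in imminent division cells and 6.46% and 7.89% in pre-S cells. B bins received 15.7% and 15.6%, 16.4% and 16.5%, 15.9% and 15.3%, and 32.1% and 30.8%. In imminent division cells against 10 h the share of A bins was higher, although the far contacts with A partners were lower. The pre-S libraries differed from all others in both shares, and the mouse line, the gate and the group cannot be told apart here.

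**Figure D5:**
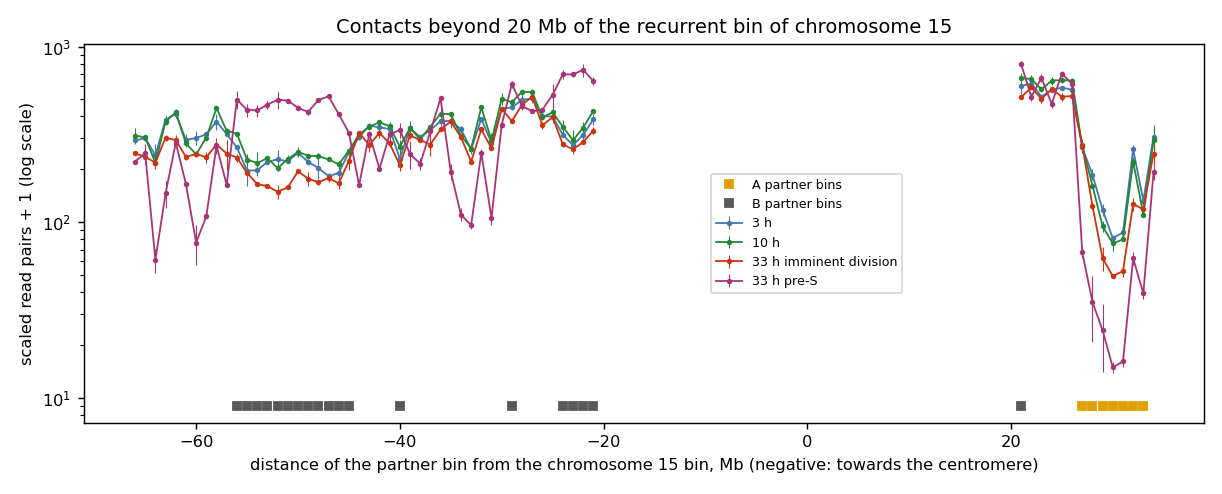
Far contacts of the bin chr15:68999951-70000051 along chromosome 15. The horizontal axis is the signed distance from the bin in Mb and the vertical axis the scaled count plus 1 on a log axis, with points at the mean of the 2 libraries of a group and vertical bars of 1 SD to each side. Squares along the bottom mark A and B partner bins. The pre-S line lies above the others at the B partners towards the centromere and below them at the A partners, such as the Arid2 bin at 27 Mb.

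At imminent division, the bin chr3:136000050-137001050 gained contacts. It holds Bank1, which encodes a B cell scaffold protein downstream of the antigen receptor. With the bin chr3:106999972-108000190, which holds the transporter gene Slc6a17, the scaled count was 402 and 360 at 3 h, 308 and 314 at 10 h, 691 and 855 in imminent division cells and 438 and 394 in pre-S cells. The imminent division libraries lay above all others (log2 change against 10 h 1.32 ± 0.09 SE, adjusted p = 5.7e-16; 0.72 with coverage offsets and 1.15 without imminent division replicate 2). Over its 15 A partners the Bank1 bin had mean scaled counts of 487 and 446, 410 and 412, 556 and 633, and 419 and 416 in the order of the groups. Of all its 116 far partners, 43 were stronger and 0 weaker in imminent division cells than at 10 h, a description only, since this bin too was picked for its changes. Its contacts with A bins of other chromosomes were 46.3% and 46.4% of its interchromosomal contacts at 10 h and 45.5% and 46.9% in imminent division cells. A share of the bin's own contacts cannot show a gain that is spread over all partners.

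The bin chr11:67000005-67999668, with the syntaxin gene Stx8, lost contacts with bins near the distal end of chromosome 11. With the bin chr11:118000061-118999993, which holds Rbfox3, a neuronal splicing regulator, the scaled count was 521 and 463 at 3 h, 500 and 465 at 10 h, 171 and 196 in imminent division cells and 200 and 247 in pre-S cells. Both groups at 33 h lay below both earlier groups (imminent division against 10 h -1.38 ± 0.10 SE, adjusted p = 2.9e-15; -1.71 with coverage offsets). With the bin of the tubulin cofactor gene Tbcd it was 648 and 662, 598 and 550, 238 and 249, and 296 and 305 (-1.23 ± 0.09 SE, adjusted p = 1.8e-15). The Nkd1 and Banp bins of chromosome 8 changed in the same way, with 942 and 867, 767 and 707, 335 and 354, and 345 and 392 (-1.09 ± 0.08 SE, adjusted p = 1.2e-14). Nkd1 encodes an inhibitor of Wnt signalling. The Stx8 bin was picked in the same way, and its contacts with A bins of other chromosomes were 26.0% and 26.3% of its interchromosomal contacts at 10 h and 24.7% and 25.6% in imminent division cells.

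Early changes were fewer and smaller. The bin of Mertk, a receptor tyrosine kinase gene of chromosome 2, met the Tshz2 bin 41 Mb away less often at 10 h, with scaled counts of 307 and 317 at 3 h, 154 and 175 at 10 h, 88.2 and 88.7 in imminent division cells and 88.7 and 64.0 in pre-S cells (log2 change -0.92 ± 0.12 SE, edgeR adjusted p = 8.8e-06). The Kcnip1 and Specc1 bins of chromosome 11 went from 233 and 221 to 132 and 114 (-0.89 ± 0.13 SE, adjusted p = 5.8e-05), which was lost without 10 h replicate 2 (adjusted p = 0.058). Also lost without that library were the gains of the Clint1 and Stx8 bins (0.59, adjusted p = 0.1) and of the Exoc4 and Wnk1 bins (0.66, adjusted p = 0.083).

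Summed per bin, far contacts show which places of a chromosome took a larger or smaller part in them. Each of the 2380 bins was tested with the far total of its chromosome as library size. At imminent division 428 bins were higher than at 10 h (18%) and 419 lower (17.6%). At pre-S 762 were higher (32.0%) and 805 lower (33.8%), and between imminent division and pre-S 818 were higher (34.4%) and 678 lower (28.5%) in imminent division cells. Between 3 h and 10 h edgeR called 0 bins (0.0% in each direction), with 217 at an unadjusted p under 0.05, while DESeq2 called 111. With the autosomal cis total in place of the far total the median of all bins moved by -0.23 in imminent division cells against 10 h, and 21 were higher and 1875 lower; in pre-S cells against 10 h it moved by -0.09, with 478 higher and 1116 lower, and between imminent division and pre-S by -0.15, with 61 and 1372. Changes of bins are therefore relative to their chromosome. The number changed was 282 and 316 without 10 h replicates 1 and 2 and 926 without imminent division replicate 2 for imminent division against 10 h, 860, 1015 and 750 without 10 h replicate 1, 10 h replicate 2 and pre-S replicate 1 for pre-S against 10 h, and 559 and 921 without pre-S replicate 1 and imminent division replicate 2 for imminent division against pre-S.

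Bins split by compartment in pre-S cells as the pairs had. Of the 476 B bins 437 were higher and 1 lower than at 10 h, and of the 476 A bins 9 were higher and 314 lower. The bins that were higher had a mean GC content of 38.8% ± 2.1 and 4.01 gene starts, and those that were lower 44.7% ± 2.7 and 11.6. With coverage in the offsets, 77 B bins were higher and 210 lower, and 79 A bins higher and 251 lower (24.7% and 36.5% of all bins). At imminent division against 10 h, 111 A bins were higher and 122 lower, and 18 B bins were higher and 29 lower. With coverage in the offsets the counts were 167 and 208 for A bins and 92 and 208 for B bins. In that setting 37.8% of all bins were higher and 33.0% lower there, and 40.2% and 21.8% against pre-S.

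Some of the bins with the smallest p in imminent division cells hold well-known B cell genes, which is a description of picked bins. Bins are named throughout for their longest protein-coding gene or for a gene on a chosen list. The Rel bin holds 10 protein-coding genes, the Tcf12 bin 12 and the Herc1 bin 15, while the Mef2c bin holds 1. Whether the change of a bin lies at the gene it is named for was not tested. The bin chr11:22999972-23999445, with Rel (the NF-kappaB subunit c-Rel) and Usp34, took 5369 and 5228 of each 1000000 far contact ends of chromosome 11 at 3 h, 5387 and 5240 at 10 h, 7196 and 7228 in imminent division cells and 5533 and 5589 in pre-S cells. The imminent division libraries lay far above all others, and the pre-S libraries a little above the 4 earlier ones (log2 change of imminent division against 10 h 0.44 ± 0.03 SE, edgeR adjusted p = 0.00061). On the scale of the autosomal cis total the change was 0.03 and no longer passed, where the median of all bins was -0.23. The Mef2c bin (chr13:82999904-83999895), named for a transcription factor of B cells and muscle, had 5786 and 5634, 5720 and 5648, 7466 and 7546, and 6246 and 6181 (0.40 ± 0.03). The bin of Tcf12, an E protein, had 6521 and 6112, 6295 and 6275, 8836 and 8953, and 6930 and 7210 (0.50 ± 0.04). A bin of immunoglobulin kappa variable genes, chr6:67999872-69000210, had 3254 and 3093, 2801 and 2783, 3809 and 3902, and 2884 and 2836 (0.47 ± 0.04). The Herc1 and Rps27l bin of chromosome 9 gained by 0.54 ± 0.04.

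Among the bins that were lower in imminent division cells, the smallest p belonged to the bin of Tbcd, the tubulin cofactor gene. This bin at the end of chromosome 11 (chr11:120999935-121982100) had 13140 and 12854 per 1000000 at 3 h, 12403 and 12356 at 10 h, 8739 and 8966 in imminent division cells and 9451 and 9218 in pre-S cells. All 4 libraries at 33 h lay below the 4 earlier ones (-0.48 ± 0.02 in imminent division cells, adjusted p = 0.00021, and -0.41 ± 0.02 in pre-S cells, adjusted p = 0.00073). The Rbfox3 bin went down likewise, by -0.42 ± 0.03 and -0.46 ± 0.03. The others were the Fam19a5 bin of chromosome 15 (-0.31, and -0.11 with coverage in the offsets), chr16:11999631-13000528 (-0.34) and the Ano10 and Zfp445 bin of chromosome 9 (-0.29). At pre-S the bins of Btbd9 (chr17:30000125-30998728), Thsd4 (chromosome 9) and Sdk1 (chromosome 5) were lower than at 10 h by -0.72 ± 0.05, -0.51 ± 0.04 and -0.53 ± 0.04. The Btbd9 bin had 5501 and 5205, 4613 and 4696, 3333 and 3485, and 2784 and 2874 per 1000000.

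At pre-S the bin of Ikzf1, the Ikaros transcription factor of lymphoid cells (chr11:11000041-12000284), was higher than at 10 h. It had 6164 and 6235 at 3 h, 6287 and 6200 at 10 h, 7841 and 8079 in imminent division cells and 7491 and 7432 in pre-S cells (0.26 ± 0.03 SE, adjusted p = 0.0019). It was 0.07 and no longer passed with TMM factors, and on the scale of the autosomal cis total it was -0.02, against a median of -0.09 for all bins. The bins of Tmem267, Ripk2 and Stag1 gained 0.23, 0.28 and 0.19 (Stag1 0.00 and no longer past the threshold with the autosomal cis total, Ripk2 0.14 with coverage in the offsets), and chr14:94000564-94999906, with no protein-coding gene, 0.29, which was 0.01 with coverage in the offsets. Ripk2 encodes a kinase of NOD receptor signalling and Stag1 a cohesin subunit.

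Genes of B cell identity and of LPS signalling sat in bins that were higher in imminent division cells more often than lower, where 18% of all bins were higher and 17.6% lower. Of 22 bins with B cell regulators 8 were higher and 3 lower (median 0.12, against 0.02 over all bins), of 16 with Toll-like receptor and NF-kappaB genes 8 and 2 (0.12), and of 14 with B cell surface and receptor signalling genes 8 and 1 (0.17). With coverage in the offsets the counts were 15 and 3, 11 and 1, and 11 and 1 (37.8% and 33.0% of all bins). Examples were Ikzf1 (0.35 ± 0.03), Ebf1, a factor that specifies B cells (0.24 ± 0.03), Myc (0.30 ± 0.04), Nfkb1 (0.27 ± 0.04), Cd79b, a signalling chain of the B cell receptor (0.29 ± 0.04), Ms4a1, which encodes CD20 (0.28 ± 0.04), and Ptprc, which encodes CD45 (0.34 ± 0.05). The Cd79b bin had 5841 and 5726 per 1000000 at 3 h, 5922 and 5730 at 10 h, 7012 and 7256 in imminent division cells and 6104 and 6341 in pre-S cells. The Myd88 bin, with the adaptor of most Toll-like receptors, was lower (-0.17 ± 0.03). Against pre-S, 16 of 22, 12 of 16 and 13 of 14 bins of these lists were higher in imminent division cells and 0, 1 and 0 lower, where 34.4% of all bins were higher and 28.5% lower. With coverage in the offsets 13, 11 and 10 were higher and 3, 2 and 0 lower (40.2% and 21.8% of all bins). Many of these bins are A bins (14, 9 and 8), a class in which 326 of 476 were higher there. On the scale of the autosomal cis total the lists' medians against 10 h were -0.15, -0.11 and -0.14, which lay 0.08, 0.12 and 0.09 above the median of all bins.

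Of 9 bins with cohesin and CTCF genes, which fold loops and domains, 5 were higher and 2 lower in imminent division cells than at 10 h, where 18% and 17.6% of all bins were. Those with the smallest p were all higher, the bins of the cohesin regulator Pds5a (0.44 ± 0.04), Stag1 (0.22 ± 0.02), Smc3 (0.22 ± 0.03) and Ctcf (0.18 ± 0.04). Of 9 immunoglobulin bins 4 were higher and 1 lower, and of 18 with G1 cyclin, kinase and E2F genes 8 and 3. The counts were 6 and 5 of 19 for mitosis and condensin genes, 5 and 3 of 22 for DNA replication genes, 1 and 1 of 5 for nuclear lamina genes and 0 and 1 of 5 for histone genes, several of them near the share of all bins. With coverage in the offsets, where 37.8% of all bins were higher and 33.0% lower, the counts were 7 and 2 for cohesin and CTCF genes, 4 and 2 for immunoglobulin genes, 10 and 6 for G1 genes, 7 and 5 for mitosis genes, 9 and 10 for replication genes, 3 and 2 for lamina genes and 0 and 3 for histone genes. Of the replication genes with the smallest p, the bins of Cdc6, which loads the helicase (0.31 ± 0.04), and Gins1 (0.17 ± 0.03) were higher and those of Cdt1 (-0.37 ± 0.08) and Mcm7 lower. The Mcm7 bin, with a subunit of the replicative helicase, had 7568 and 7079, 6985 and 6802, 5005 and 5359, and 5092 and 5175 per 1000000 (-0.41 ± 0.05 in imminent division cells).

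Between 10 h and pre-S, 32.0% of all bins were higher and 33.8% lower. Of the bins with DNA replication genes 4 were higher and 12 lower of 22, of those with ribosomal protein genes 4 and 37 of 70, and of those with zinc finger genes 24 and 84 of 179, and 14, 41 and 75 of these are A bins, a class in which 314 of 476 were lower. Examples were the bins of Cdt1, which licenses replication origins (-0.52 ± 0.08), Rrm1, of ribonucleotide reductase (-0.30 ± 0.03), and Rps3 (-0.55 ± 0.04). Protocadherin genes, often in B bins (6 of 11), were higher in 7 and lower in 3, as in the Pcdh9 bin (0.40 ± 0.05). Vomeronasal receptor genes had 21 higher and 6 lower of 45, and olfactory receptor genes 25 and 24 of 83. With coverage in the offsets 24.7% of all bins were higher and 36.5% lower, and the counts were 8 and 9 for replication genes, 15 and 26 for ribosomal protein genes, 47 and 58 for zinc finger genes and 16 and 33 for olfactory receptor genes. The direction turned for protocadherin genes (0 and 6) and vomeronasal receptor genes (7 and 16).

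In the same comparison of pre-S with 10 h, 32.0% of all bins were higher and 33.8% lower. Lists of B cell genes had shares of lower bins on either side of that of all bins, and shares of higher bins below it. Of 22 bins with B cell regulators 2 were higher and 5 lower, the latter with Bcl6 (-0.23 ± 0.03), Irf8 (-0.45 ± 0.07) and Id3 (-0.45 ± 0.08), of 16 with Toll-like receptor and NF-kappaB genes 3 and 7, of 14 with B cell surface and receptor signalling genes 1 and 3, and of 9 with immunoglobulin genes 0 and 5. The first 3 of these turned with coverage in the offsets, to 10 and 5, 7 and 3, and 6 and 3, while immunoglobulin genes stayed at 0 and 5. In that setting 24.7% of all bins were higher and 36.5% lower. Mitosis and condensin genes had 2 higher and 9 lower of 19 (5 and 3 with coverage in the offsets), and G1 cyclin, kinase and E2F genes 2 and 8 of 18 (6 and 7). The counts were 2 and 2 of 9 for cohesin and CTCF genes (6 and 2 with coverage in the offsets), 3 and 4 of 9 for keratin genes, 0 and 1 of 5 for nuclear lamina genes and 0 and 0 of 5 for histone genes.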

How the data were processed

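Eight-library in situ HiC data were analysed from the read-pair counts deposited by the authors, who aligned 81-base paired reads to mm10 with diffHic, removed marked duplicates, dangling ends and long fragments, and counted pairs per bin. The matrices carry no bin coordinates. The 50 kb bins were rebuilt from MboI fragments of GRCm38, and their order was checked only by their number, by contact decay and by the absence of adjacent-bin contacts across chromosome ends, so each gene and coordinate named rests on it. Of 48088 autosomal bins, 756 with many unknown bases or extreme interchromosomal coverage were left out, and 2380 of 2433 bins of 1 Mb were kept. The 8 whole-map measures were tested over 105 groupings. Bin pairs, bins and chromosomes were tested with edgeR 4.0.16 quasi-likelihood (R 4.3.3, limma 3.58.1) on counts at an FDR of 5%. DESeq2 1.42.0 served as an alternative. Only the edgeR fit was also run on simulated counts. The named pairs and bins are the 3 and 5 with the smallest p in each direction. Other alternatives were the normalization, coverage in the offsets, iterative correction, bin size, distance limit, thinned counts, a replicate block and leaving out each library. The members and lists were chosen with earlier results of these data known. Other libraries and the expression data of the study were not used here. One of the named pairs is not reported here.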

Additional observations from a re-analysis of the deposited data

How the results depend on the processing

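The 4 comparisons share libraries, and with 2 libraries a group leaving 1 out leaves a lone sample that is assumed to vary like the other groups. Results kept their direction and side of the threshold in 209 of 278 recomputations of the main results and in 823 of 832 for the named pairs and bins. Leaving out each library in turn, the exact permutation p ran from 0.00952 to 0.0286 for the share of cis, 0.00952 to 0.0381 for the slope and for the 21 to 40 Mb excess, 0.00952 to 0.0190 for end contact and 0.0190 to 0.829 for compartment strength. Changed pairs ran from 19 to 1297 (10 h against 3 h), 20571 to 37567 (imminent division against 10 h), 17636 to 37065 (pre-S against 10 h) and 11471 to 28395 (imminent division against pre-S). Changed bins ran from 282 to 967, 750 to 1631 and 559 to 1679 in the last 3 comparisons, with 0 in the first, and changed chromosomes from 0 to 10 (10 h against 3 h) and 10 to 19 (pre-S against 10 h). With the limit at 50 Mb, and as a share of all autosomal pairs, the share had an exact permutation p of 0.0190. After adjustment it missed the threshold in both settings. With that limit 1 and 9 chromosomes changed (10 h against 3 h, pre-S against 10 h). After iterative correction A–A and B–B contact turned, each with an exact permutation p of 0.00952, and without pre-S replicate 1 compartment strength turned (0.0857). For pairs, 10 h against 3 h gave 1238 with the cis total, 3509 with coverage offsets, 39 with DESeq2 and 369 with 2 Mb bins, of which there are fewer. Imminent division against 10 h gave 54983 with coverage offsets, and DESeq2 and 2 Mb bins gave 18923 and 13244 there, 18890 and 14340 for pre-S against 10 h, and 12110 and 10985 for imminent division against pre-S. For bins, 10 h against 3 h gave 298 with coverage offsets and 111 with DESeq2, and imminent division against 10 h gave 1896 with the cis total and 1686 with coverage offsets. The Ikzf1 bin turned to -0.0207 with the cis total. The cause was not tested. The replicate numbers do not pair the samples (correlation of deviations -0.138 to 0.0352). With the replicate block, the share, the slope and end contact had an exact permutation p of 0.0417, the smallest it can give (adjusted 0.111), so none passed, and 419 pairs and 8 chromosomes changed between 3 h and 10 h. The block kept 603 of 847 changed bins (imminent division against 10 h), 1334 of 1567 (pre-S against 10 h) and 1235 of 1496 (imminent division against pre-S), all in the same direction.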
